A study of Homo sapiens with 6 samples.

Results

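Tight junctions seal the space between neighbouring epithelial cells, and in the liver they part bile from blood. Claudins are membrane proteins that form the sealing strands and set which ions pass. Occludin and tricellulin, of the MARVEL family, sit in the same strands, junctional adhesion molecules lie beside them, and scaffold proteins such as ZO-1 and cingulin tie them to the actin cytoskeleton. The 9 genes described here are the claudin genes CLDN1, CLDN3, CLDN4 and CLDN12, the MARVEL genes OCLN and MARVELD2, the adhesion molecule gene F11R and the scaffold genes TJP1 and CGN. They were chosen by name from the 14034 rows of the count table, and all 9 were found and passed the filter on low counts.

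RNA was sequenced from JHH-4, an established cell line of human hepatocellular carcinoma that the labels call epithelial-like. The 3 miR-885-5p libraries came from cells that overexpressed hsa-miR-885-5p from a plasmid with its primary transcript, and the 3 Control libraries from cells labelled WT. The sources used here do not give what the Control cells received, the time after delivery or the level reached by the microRNA. Per the design text, the submitters describe the 3 libraries of each group as technical replicates, so every p-value below measures only the spread between such replicates. Library totals ran from 46382314 to 56409821 counts in the miR-885-5p group and from 48327113 to 49694754 counts in the Control group. Of the epithelial markers, KRT8, KRT18 and KRT19 were analysed, with summed levels of 2811 to 2907 CPM in miR-885-5p libraries and 3342 to 3440 CPM in Control libraries (CPM is a count scaled to the library's size by TMM); CDH1 and EPCAM were not analysed here. Of 7 hepatocyte markers only SERPINA1 was analysed, at 7.05 to 9.73 CPM in miR-885-5p libraries and 8.16 to 9.42 CPM in Control libraries. In bulk RNA, fewer cells with a message and less message per cell cannot be told apart.

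A microRNA pairs with messages through its seed, bases 2 to 8, and its sequence is shown because the sites below are defined by it. Mature miR-885-5p lies on the minus strand of chromosome 3 (chr3:10394531-10394552, RefSeq, GRCh38.p14). The other mature strand, hsa-miR-885-3p, lies beside it (chr3:10394499-10394520) and has a different seed. The level of hsa-miR-885-3p is not given, its sites were not searched and its part in the differences was not tested. Mature miR-885-5p is printed with the seed in capitals.
hsa-miR-885-5p: uCCAUUACacuacccugccucu
The matching sites are GTAATGGA (8mer), GTAATGG (7mer-m8), TAATGGA (7mer-A1) and TAATGG (6mer), searched on the sense strand of the longest annotated 3′ UTR; each shorter motif lies inside the 8mer, and a site was counted once, under its longest form. The 30-base windows below hold every such site in the 9 genes, with the site in capitals, from GENCODE 29 transcripts on GRCh38.
CLDN1 8mer: agcaagatgatGTAATGGAaagggtgttgg
CLDN1 7mer-m8: gctaaacagatGTAATGGgaagaaataaaa
OCLN 7mer-A1: gttgactttgtTAATGGAttggataatgtg
OCLN 6mer: tacatttattcTAATGGgaagaagtgagca
CLDN12 6mer: taaaagggccaTAATGGtttgttctctttc
CLDN1 was the only one of the 9 genes with a 7mer-m8 or 8mer site, and it held both, at chr3:190306682-190306689 and chr3:190306238-190306244 on the minus strand. They start at bases 1588 and 2033 of a 3′ UTR of 2576 bases. Of all 12308 genes with a 3′ UTR, 8.01% held a site of these kinds and 2.53% held an 8mer. OCLN held the weaker 7mer-A1 form at chr5:69556605-69556611 and a 6mer at chr5:69557029-69557034, both on the plus strand of a UTR of 4433 bases, and CLDN12 held a 6mer at chr7:90414231-90414236 on the plus strand. A site of any of the 4 kinds was found in 30.4% of all genes. CLDN3, CLDN4, MARVELD2, F11R, TJP1 and CGN held none in their longest 3′ UTRs. A match describes the sequence and does not show that the site is used.

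With miR-885-5p, 6 of the 9 genes fell, 2 rose and 1 did not pass the threshold, an adjusted p of 0.05 in edgeR's quasi-likelihood test with Benjamini-Hochberg adjustment over all 14034 genes. In that comparison 52.9% of all genes were called, 26.3% as higher and 26.5% as lower, so a call alone is common in these libraries. The median log2 fold change (miR-885-5p over Control) was -0.51 over the 9 genes and -6e-04 over all genes. A difference of at least 2-fold was called for 2 of the 9 genes, CLDN4 and CLDN1, and for 5.40% of all genes. The ranges of the 2 groups did not overlap for 7 of the 9 genes, against 60.5% of all genes.

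**Figure D1:**
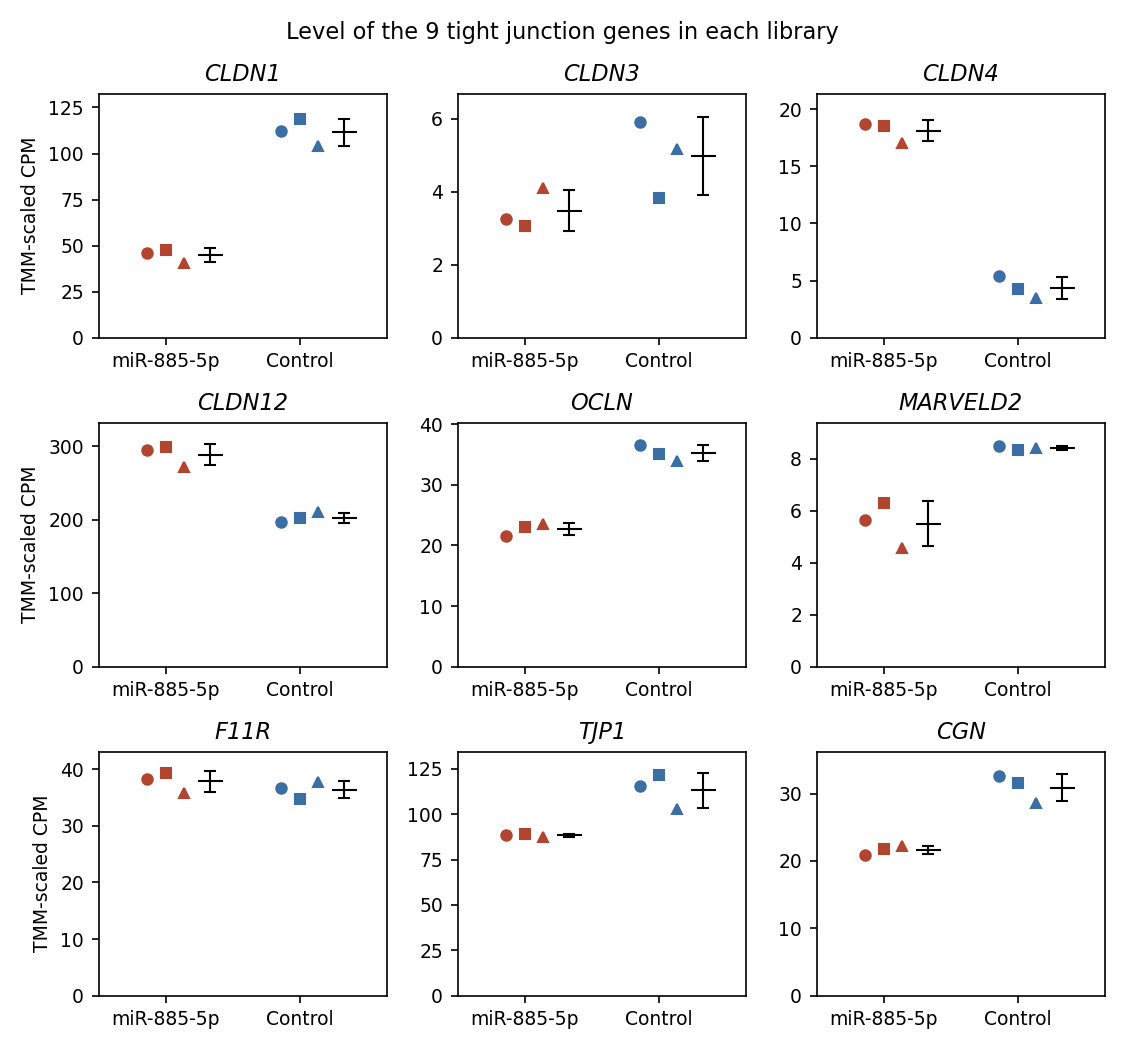
TMM-scaled CPM of the 9 genes in each library, with miR-885-5p in red and Control in blue; circles, squares and triangles are libraries 1, 2 and 3, and black bars are the mean ± SD (n = 3). CLDN4 lies at 17.1 to 18.7 CPM in miR-885-5p libraries, above all Control libraries, and the groups overlap for CLDN3 and F11R.

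The claudin genes moved in opposite directions. CLDN4 encodes a barrier-forming claudin that, with claudin-3, is also the receptor of Clostridium perfringens enterotoxin. CLDN4 had 18.7, 18.5 and 17.1 CPM in miR-885-5p libraries 1 to 3, against 5.38, 4.24 and 3.49 CPM in Control libraries 1 to 3. Every miR-885-5p library was above every Control library, and CLDN4 rose 4.14-fold (log2 fold change 2.05, SE 0.14, edgeR adjusted p = 2.23e-06). CLDN1 encodes a sealing claudin of epithelia and hepatocytes, which hepatitis C virus uses for entry. CLDN1 had 46.2, 47.7 and 40.8 CPM in miR-885-5p libraries, against 112.3, 118.5 and 104.0 CPM in Control libraries. The groups stood well apart, and CLDN1 fell by 1.31 on the log2 scale (SE 0.07, edgeR adjusted p = 4.48e-07). It is the gene with the 8mer and 7mer-m8 sites printed above.

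CLDN12 encodes an atypical claudin without the usual tail motif that binds PDZ scaffolds. It had 294.5, 298.5 and 272.4 CPM in miR-885-5p libraries, against 197.0, 201.8 and 210.5 CPM in Control libraries. The groups did not overlap, and CLDN12 rose by 0.51 on the log2 scale (SE 0.05, edgeR adjusted p = 1.32e-05). Some CLDN12 exons share bases on the same strand with those of GTPBP10 and CDK14, 347 and 201 bases, and the sources used here do not say how shared reads were counted. Neither neighbour was called: GTPBP10 had a log2 fold change of -0.03 and CDK14 of -0.09.

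CLDN3 encodes the other enterotoxin receptor among these claudins, and its gene lies 29272 bases from CLDN4 on chromosome 7. CLDN3 had 3.27, 3.05 and 4.11 CPM in miR-885-5p libraries, against 5.93, 3.82 and 5.18 CPM in Control libraries. The groups overlapped, since miR-885-5p library 3 was above Control library 2. The log2 fold change was -0.52 (SE 0.20), and the edgeR adjusted p of 0.0485 was just under the threshold. The call was lost without miR-885-5p library 1 or 2 and without Control library 1 or 3, with edgeR adjusted p of 0.127, 0.149, 0.185 and 0.0867. It was also lost when counts were scaled by library totals alone (adjusted p = 0.0687). The smallest single count among the 9 genes, 154, was that of CLDN3 in miR-885-5p library 1. The other neighbours of this claudin pair were ABHD11, with a log2 fold change of -0.38, and METTL27, which lies 1897 bases past CLDN4 and had 0.34. Both were called, though METTL27 (edgeR adjusted p = 0.0279) lost its call without miR-885-5p library 1 or 2 or Control library 2, with adjusted p of 0.0635, 0.118 and 0.071, and ABHD11 lost its own on the FPKM scale (limma adjusted p = 0.173). Around CLDN1, P3H2 had a called log2 fold change of -0.70 and IL1RAP of 0.32, at distances of 183264 and 191576 bases. IL1RAP (edgeR adjusted p = 0.0226) was not called without miR-885-5p library 1 or 3 or Control library 1, with adjusted p of 0.089, 0.0591 and 0.0695.

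The MARVEL genes both fell in the count test. OCLN, the gene of occludin, which hepatitis C virus also uses for entry, had 21.6, 23.1 and 23.5 CPM in miR-885-5p libraries, against 36.5, 35.1 and 34.0 CPM in Control libraries. The groups did not overlap and OCLN fell by 0.63 on the log2 scale (SE 0.06, edgeR adjusted p = 1.65e-05). An annotated partial copy, OCLNP1, lies on the same chromosome, so reads shared with it could make this value uncertain. MARVELD2, the gene of tricellulin, which seals the corners where 3 cells meet, lies 47962 bases from OCLN on chromosome 5. MARVELD2 had 5.66, 6.30 and 4.57 CPM in miR-885-5p libraries, against 8.51, 8.33 and 8.42 CPM in Control libraries. The miR-885-5p libraries were lower and more spread out, and the log2 fold change was -0.61 (SE 0.13, edgeR adjusted p = 0.00284).

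The scaffold genes also fell. TJP1, the gene of ZO-1, which links strand proteins to actin, had 88.6, 89.2 and 87.3 CPM in miR-885-5p libraries, against 115.7, 121.5 and 102.8 CPM in Control libraries. Control library 3 was closest to the miR-885-5p group, without overlap. TJP1 fell by 0.36 on the log2 scale (SE 0.06, edgeR adjusted p = 0.00057). CGN, the gene of cingulin, which binds ZO-1 and actomyosin, had 20.9, 21.7 and 22.2 CPM in miR-885-5p libraries, against 32.5, 31.6 and 28.6 CPM in Control libraries. These ranges were apart as well, and CGN fell by 0.51 on the log2 scale (SE 0.07, edgeR adjusted p = 1.25e-04).

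F11R encodes JAM-A, an adhesion molecule that helps set up cell polarity. It had 38.4, 39.4 and 35.8 CPM in miR-885-5p libraries, against 36.7, 34.8 and 37.7 CPM in Control libraries. The groups overlapped, and the log2 fold change of 0.06 (SE 0.06) did not pass the threshold (edgeR adjusted p = 0.442). A readthrough gene on the same strand shares 1853 exon bases with F11R, so part of its reads may be split.

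**Figure D2:**
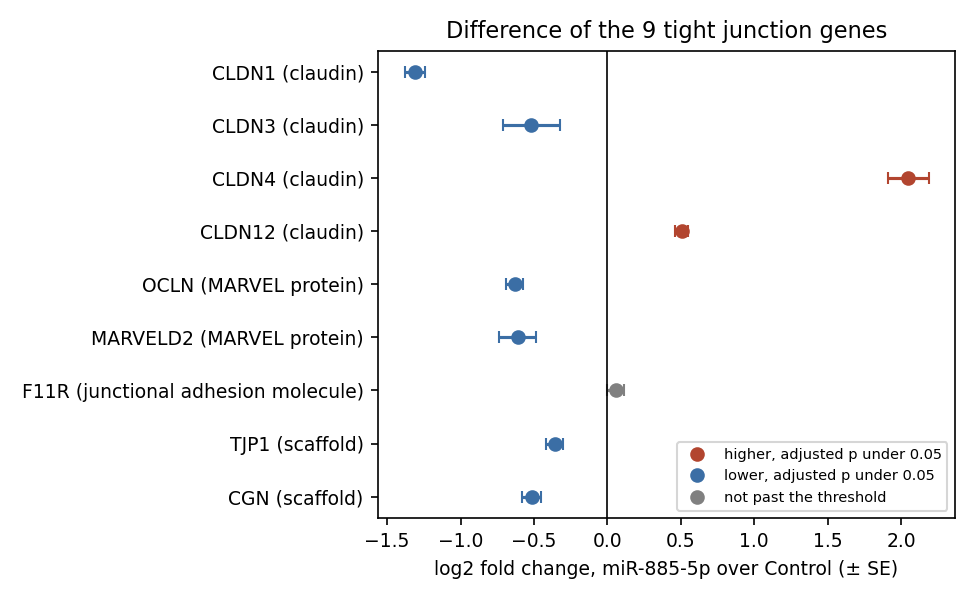
Log2 fold change of each gene, miR-885-5p over Control, with its SE, by role; red is higher, blue lower and grey not past the threshold. CLDN4 at 2.05 and CLDN1 at -1.31 lie at the ends, and F11R at 0.06 lies near 0.

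Levels of different genes were compared on the authors' FPKM scale, which divides by transcript length. In miR-885-5p libraries the order by mean level was CLDN12 at 79.7 FPKM, CLDN1 at 12.1, TJP1 at 11.99, CLDN4 at 9.03, F11R at 7.34, OCLN at 6.76, CGN at 3.98, CLDN3 at 2.55 and MARVELD2 at 1.60. CLDN1 and TJP1 overlapped in range there, as did F11R and OCLN, and the other neighbours in the order did not. In Control libraries the order was CLDN12 at 55.1 FPKM, CLDN1 at 28.8, TJP1 at 15.0, OCLN at 9.78, F11R at 6.81, CGN at 5.46, CLDN3 at 3.52, MARVELD2 at 2.02 and CLDN4 at 1.71. No neighbours in that order overlapped in range. CLDN4 thus stood at rank 4 of 9 in miR-885-5p libraries and at rank 9 in Control libraries. With CPM divided by the longest annotated transcript, CLDN4 stood at rank 5 and rank 9. By that measure OCLN stood at rank 6 in Control libraries, below F11R and CGN, against rank 4 by FPKM. The rank of CLDN4 in Control libraries is uncertain, with CLDN4 at 1.62 to 1.89 FPKM and MARVELD2 at 1.90 to 2.12 FPKM. Control library 1 had a low CLDN4 FPKM for its count, as described below. The longest annotated CLDN4 transcript, of 4163 bases, is also longer than its counts and FPKM imply in any library.

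Claudin strands are built from the claudins that a cell has, so the makeup of the 6 claudin messages analysed was also compared, as shares of their summed FPKM. Messages were measured and protein was not, so these shares do not give the makeup of the strands. CLDN12 held 65.8% ± 0.622 of the sum in miR-885-5p libraries and 50.5% ± 1.87 in Control libraries (SD, n = 3 each). CLDN1 held 9.98% ± 0.531 in miR-885-5p libraries and 26.5% ± 1.72 in Control libraries. CLDN4 held 7.45% ± 0.266 in miR-885-5p libraries and 1.57% ± 0.146 in Control libraries, including Control library 1 with its low FPKM for its count. CLDN2, which forms a pore for cations and water, held 9.19% ± 0.754 in miR-885-5p libraries and 13.9% ± 0.120 in Control libraries. CLDN15, which forms a cation pore, held 5.45% ± 0.242 in miR-885-5p libraries and 4.38% ± 0.206 in Control libraries. For these 5 genes the groups did not overlap, and the two-sided exact permutation test gave p = 0.1 for each, the smallest that 3 against 3 allows (0.117 with Benjamini-Hochberg adjustment over 7 comparisons). The sum of the 6 claudins was 121 ± 4.72 FPKM in miR-885-5p libraries and 109 ± 1.75 FPKM in Control libraries (exact permutation p = 0.1). The share of CLDN3 was 2.12% ± 0.407 in miR-885-5p libraries and 3.22% ± 0.727 in Control libraries, with overlap (exact permutation p = 0.2).

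**Figure D3:**
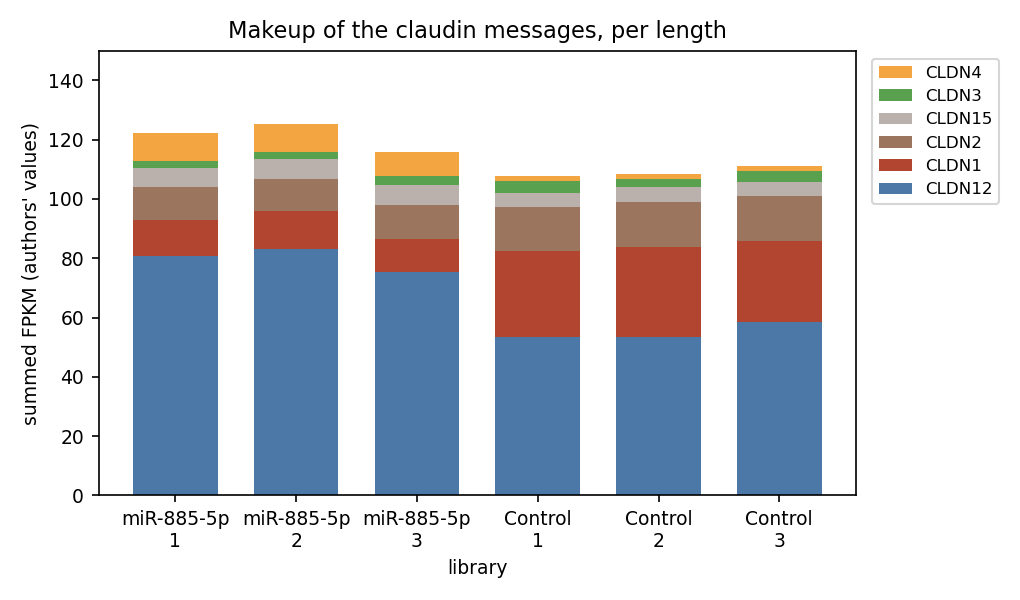
Summed FPKM of the 6 claudin genes analysed, stacked by gene, in each library; the authors' FPKM values are on the vertical axis. The CLDN1 segment is 10.9 to 13.1 FPKM in miR-885-5p libraries and 27.3 to 30.2 FPKM in Control libraries, and the CLDN4 segment is 8.29 to 9.45 FPKM in miR-885-5p libraries and 1.62 to 1.89 FPKM in Control libraries.

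For CLDN4 and MARVELD2, and to a lesser degree OCLN, the count and the FPKM of a library did not stand in a constant ratio. The transcript length implied by each library's count and FPKM was nearly constant for most genes, with a median ratio of 1.05 between the highest and the lowest library. For CLDN4 that length was 2037, 1999 and 2086 bases in miR-885-5p libraries, against 3262, 2194 and 2123 bases in Control libraries, so Control library 1 stood apart. A limma test on log2(FPKM + 0.1), chosen after the data were seen, gave CLDN4 a rise of 2.33 in log2 units (SE 0.09, adjusted p = 6.71e-06). The added 0.1 shrinks changes of low values, yet this rise was larger than the 2.05 from the counts. Control library 1, with 1.62 FPKM, had the lowest CLDN4 FPKM for its count. The part of that library in the larger rise was not tested. MARVELD2 had 1.32, 2.15 and 1.34 FPKM in miR-885-5p libraries, against 2.04, 2.12 and 1.90 FPKM in Control libraries. On this scale miR-885-5p library 2 was above the whole Control group, and the call of MARVELD2 was lost, at -0.35 in log2 units (SE 0.18, limma adjusted p = 0.158). Its implied length ranged from 2994 to 4349 bases in miR-885-5p libraries and from 3840 to 4387 bases in Control libraries. CLDN3 was not called on this scale either, with a log2 fold change of -0.43 (limma adjusted p = 0.0816). For OCLN the implied length was 3590, 3110 and 3622 bases in miR-885-5p libraries and 3515 to 3567 bases in Control libraries. The ratio of highest to lowest was 1.165, and 20.4% of genes had a larger one. The overlap of OCLN with F11R in miR-885-5p libraries came from library 2, where OCLN had 7.59 FPKM.

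Other junction genes were counted from 7 lists. Of 103 listed genes 62 were analysed, of which 13 rose and 23 fell, with a median log2 fold change of -0.045 against -6e-04 over all genes. Over all genes 52.9% were called, 26.3% as higher and 26.5% as lower. Counts of calls in each list below are descriptions to be read beside these shares. Among the other claudins, CLDN2 fell by 0.48 on the log2 scale and CLDN15 rose by 0.39. Of 6 other junction membrane genes 4 fell and 0 rose, with a median log2 fold change of -0.53. LSR encodes angulin-1, which brings tricellulin to cell corners. LSR had 21.1, 22.5 and 21.6 CPM in miR-885-5p libraries, against 73.8, 73.4 and 64.3 CPM in Control libraries. It fell by 1.70 on the log2 scale (SE 0.07, edgeR adjusted p = 9.36e-08), without overlap of the groups. ESAM, an adhesion molecule best known from endothelium, fell by 0.92 on the log2 scale. It had 2.10 ± 0.229 CPM in miR-885-5p libraries, against 3.98 ± 0.469 CPM in Control libraries (SD, n = 3 each).

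Of 27 other scaffold and polarity genes 6 rose, 6 fell and 15 were not called. PRKCZ, an atypical protein kinase C of the polarity complex, had 19.7 ± 0.898 CPM in miR-885-5p libraries and 28.9 ± 0.950 CPM in Control libraries, and fell by 0.55 on the log2 scale (SE 0.06, edgeR adjusted p = 5.24e-05). MAGI3 fell by 0.70 on the log2 scale, while the polarity genes PARD6B and PARD3B rose by 0.74 and 0.58. In the adherens junction list 2 of 11 genes rose and 3 fell. On the log2 scale PLEKHA7 rose by 0.90 and the nectin gene NECTIN3 by 0.44, while the actin linkers VCL and CTNNA1 fell by 0.24 and 0.21. Of 7 desmosome genes 1 rose and 4 fell, with PKP3 at a log2 fold change of 1.10, PKP2 at -0.50 and DSC2 at -0.33. The protease inhibitor gene SPINT2, the only claudin partner gene analysed, had a log2 fold change of -0.94.

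Transcription factors that are known to act on junction genes also differed, 3 of 8 higher and 4 lower. SNAI2 and SNAI1 encode related zinc finger repressors of claudin and occludin genes. SNAI2 had 18.1, 16.3 and 17.2 CPM in miR-885-5p libraries, against 6.998, 6.51 and 6.58 CPM in Control libraries, and rose by 1.36 on the log2 scale (SE 0.08, edgeR adjusted p = 1.06e-06). SNAI1, which holds a 7mer-m8 site, had 0.573, 0.885 and 0.631 CPM in miR-885-5p libraries, against 2.00, 1.76 and 1.95 CPM in Control libraries. It fell by 1.44 on the log2 scale (SE 0.24, edgeR adjusted p = 6.62e-04). Every row of the count table had at least 1 CPM in 3 libraries, and SNAI1 reached that only in Control libraries. Its presence among the genes analysed thus depends on the group where it is high, which limits what its fall shows. That fall is therefore not set against the rise of SNAI2, and it adds little to the counts of lower genes given here. ZEB2, another zinc finger repressor, rose by 0.68, and GRHL1, of the grainyhead family of epithelial factors, fell by 1.21 on the log2 scale. Of the 62 genes of these lists 6 held a 7mer-m8 or 8mer site, or 9.68%, near the 8.01% of all genes with a 3′ UTR. CLDN2, CXADR, SNAI1, VCL and CTNNB1 fell, and PLEKHA7 rose, with the limit above for SNAI1. Over all genes 26.5% were called lower. The share called lower among all genes with such a site was not counted, and a link between sites and falls was not tested. CXADR fell by 0.84 on the log2 scale in the counts and by 0.34 on the FPKM scale (limma adjusted p = 0.0364). CTNNB1 had a log2 fold change of -0.14 (edgeR adjusted p = 0.0317). Its call was lost without miR-885-5p library 1 or 3 or Control library 3, with edgeR adjusted p of 0.117, 0.109 and 0.0551. The call was also lost on the FPKM scale, at -0.02 (limma adjusted p = 0.847).

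**Figure D4:**
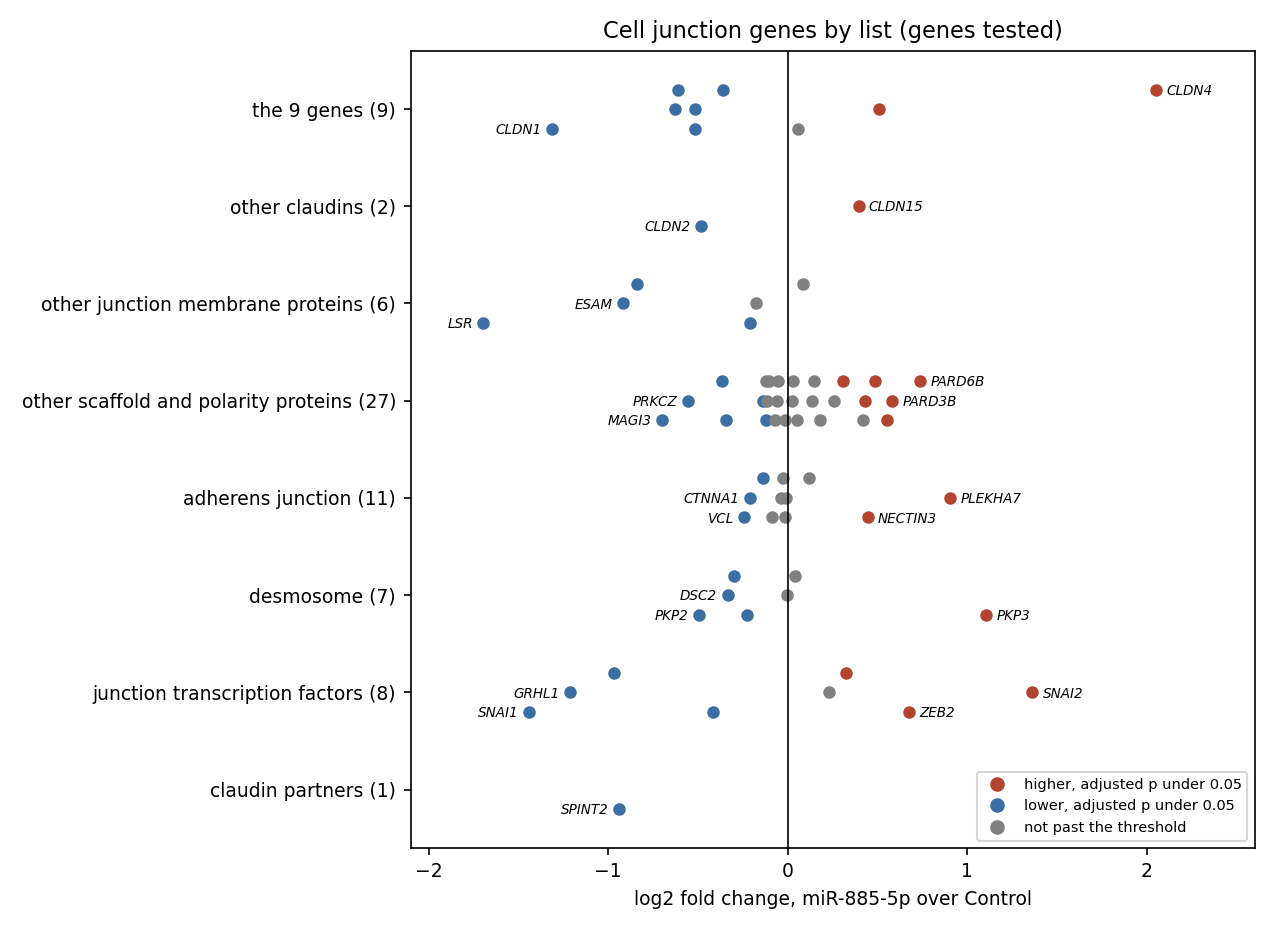
Log2 fold change, miR-885-5p over Control, of the genes analysed in each list, with their number in brackets; red is higher, blue lower and grey not past the threshold, and vertical position within a list only separates points. LSR at -1.70 is the lowest point and CLDN4 at 2.05 the highest.

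Markers of other cell types and states were counted as well. Of 5 mesenchymal markers FN1, SPARC and ZEB1 rose, and VIM and CDH2 did not pass the threshold, with summed levels of 1492 to 1508 CPM in miR-885-5p libraries and 1038 to 1123 CPM in Control libraries. Most of that sum was FN1, with 996.2 to 1022 CPM in miR-885-5p libraries and 615.3 to 682.0 CPM in Control libraries. Of 3 epithelial keratin genes 2 fell and 0 rose. Over all genes 26.3% were called higher and 26.5% lower, so these few calls are descriptions to be read beside those shares. Of 5 endothelial markers PECAM1 and KDR were analysed, with a sum of 2.50 to 2.78 CPM in miR-885-5p libraries and 1.42 to 2.08 CPM in Control libraries. PECAM1 was called higher, but it was below 1 CPM in every Control library. It thus met the floor of 1 CPM in 3 libraries, which all rows met, only through the miR-885-5p group, so its rise shows little. Of 5 leukocyte markers CD68 and CD74 were analysed, of which CD74 fell, with a sum of 323.5 to 326.9 CPM in miR-885-5p libraries and 383.8 to 455.1 CPM in Control libraries. The defining markers CDH5, VWF and PTPRC were not analysed here. The part of these markers in the junction results was not tested.

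Across the 6 libraries, the genes most like CLDN1 were ITGB4, HIPK1 and OTUB2 and those most like CLDN4 were CCDC78, ARHGAP39 and CDKN2B, out of 12420 genes with a name. Likeness was Pearson's r of log2 CPM, and it was above 0.9 for 2465 genes with CLDN1 and for 2217 with CLDN4. All libraries share the same contrast between groups, so likeness over 6 points mostly repeats that contrast.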

How the data were processed

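RNA libraries of JHH-4 cells were made with a NEBNext Ultra kit, per the labels' protocols; the sources used here do not say if strand was kept. Per the submitters' processing notes, StringTie 2.2.1, HISAT2 2.0.4, DESeq2 1.38.3 and the build GRCh38 are named, with their roles not stated. Raw counts and the authors' FPKM stand side by side for each gene and library, per the file headers. The deposited table also holds the authors' p-value and log2 fold change, from a test it does not name. Every row had at least 1 CPM in 3 libraries, so weak genes had been left out before deposit. Groups and replicate numbers come from the titles.

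For differences, edgeR 4.0.16 (R 4.3.3) was fitted to the counts with its quasi-likelihood test, TMM scaling and filterByExpr, which removed 0 of 14034 rows; SE was taken from the F statistic. In the authors' deposited table, log2 fold change was -1.31 for CLDN1, 2.05 for CLDN4 and 0.06 for F11R. The fits were also run on simulated data with far fewer changed genes than the 52.9% called here. That run cannot show how they behave when so many genes change. Alternatives were DESeq2 1.42.0, limma 3.58.1 with voom, other scalings and filters, the replicate block, leaving out each library and, added after the data were seen, limma on FPKM. Sites were searched in GENCODE 29, which held all 12420 Ensembl IDs of the table; the microRNA sequence is from RefSeq. Named are the 9 genes, in each list up to 2 called genes with the largest rise and fall, the neighbours of CLDN1, CLDN3 and CLDN4, and the 3 genes most like CLDN1 and CLDN4; other genes were chosen after their values were seen. One listed gene is not reported here and was left out of the list counts. The members and lists were chosen with earlier results of these data known. Depth of 46382314 to 56409821 counts per library limits counting error, and the spread between replicates exceeded it (chi-square per degree of freedom of 7.95 to 40.5 within groups).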

Additional observations from a re-analysis of the deposited data

How the results depend on the processing

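Under 14 alternatives none of the 9 genes changed direction, and CLDN1, CLDN4, CLDN12, OCLN, TJP1 and CGN kept their calls in all of them. F11R was called in none. The settings with no filter and with a 1 CPM filter removed no row, as in the main fit, so they repeated its values and were no separate check. CLDN1 ranged from -1.36 to -1.25 and CLDN4 from 1.91 to 2.33 on the log2 scale. CLDN3 lost its call under 6 alternatives (library totals, FPKM and 4 of the libraries left out), with log2 fold changes from -0.67 to -0.37 over all of them and adjusted p from 0.0108 to 0.185. MARVELD2 lost its call on the FPKM scale alone. The cause of these losses was not tested. Of 392 values of 28 other genes under these alternatives, none changed sign among called genes, 2 did for GTPBP10, which was not called, and 16 lost their call, those of CTNNB1, IL1RAP, METTL27, ABHD11 and DSC2, the last at -0.31 on the FPKM scale (adjusted p = 0.0895). Of the 9 genes, 4 to 6 were called lower and 2 higher under every alternative. Of the 62 wider junction genes 19 to 24 were lower and 13 to 17 higher. In miR-885-5p libraries 5 of the 9 genes kept their rank when CPM per kilobase of the longest transcript replaced FPKM, and in Control libraries 6 did. Numbers in the titles are not stated to pair the libraries. Same-numbered libraries had correlations of -0.14, -0.07 and -0.16 between their deviations from the group means. These values showed no shared deviation, which does not settle whether the libraries were paired. With the replicate block 3329 genes were higher and 3366 lower, and 2 of the 9 genes were higher and 6 lower; CTNNB1, IL1RAP and METTL27 lost their calls there, with adjusted p of 0.064, 0.052 and 0.0566. Scaling by library totals moved the median of all genes by 0.05, with 4357 genes higher and 3134 lower. Counts were as low as 154 for CLDN3 and 172 for CLDN4, which limits precision there.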
